A study of Mus musculus with 12 samples.

Results

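The 10 genes described here are known as transcriptional regulators of brown fat, followed in white and brown adipose tissue of mice with and without Per2, a repressor of the circadian clock. These genes, Prdm16, Ebf2, Ppargc1a, Ppargc1b, Irf4, Esrra, Esrrg, Nrip1, Zic1 and Tbx15, were taken by symbol from the rows of the deposited value table that name exactly 1 gene, with 1 row per gene, the row of highest mean over the 12 arrays. All 10 were found, in 11 rows, among 19933 genes tested. Affymetrix arrays were hybridised with RNA of 4 groups of 3 biological replicates: white fat (WAT) of per2+/+ mice, WAT of per2-/- mice, brown fat (BAT) of per2+/+ mice and BAT of per2-/- mice. All mice were males aged 20 weeks, fed chow without restriction, kept in cycles of 12 h light and 12 h dark, and killed at a single time of day that the labels do not state. The labels give neither the strain background nor which white depot was taken, nor if WAT and BAT with the same number share a mouse. No low-value filter was applied, so all 10 genes entered every test.

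Brown adipocytes burn fuel for heat through uncoupled respiration, and their gene programme is set by coregulators and DNA-binding factors that act together at thermogenic and mitochondrial genes. PRDM16 and EBF2 confer brown identity, the PGC-1 coactivators and IRF4 carry the response to cold and adrenergic signals, and the estrogen-related receptors recruit the PGC-1 coactivators to genes of oxidative metabolism. NRIP1 (RIP140) is a corepressor that holds the same genes down in white adipocytes, and ZIC1 and TBX15 are developmental factors whose expression in fat follows the position of the depot. PER2 inhibits the CLOCK and BMAL1 activators, which bind E-box letters in DNA, and it has been reported to bind nuclear receptors of the PPAR family.

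Ppargc1a, Zic1 and Esrra were chosen for display because they hold the letters of a motif searched for. Nrip1 was chosen because it was the regulator whose level ran opposite to the rest. The proximal promoters of these 4 genes are shown. Each is 300 bases long, from 250 bases before to 50 bases after the annotated transcript start, read 5′ to 3′ on the gene's own strand, from RefSeq on GRCm38.p6. Capitals mark the matched letters. Ppargc1a lies on the minus strand at chr5:51567676-51567975 and holds the half-site of the cAMP response element, TGACG, in its reverse complement CGTCA at position -49 from the start. Zic1 lies on the minus strand at chr9:91365719-91366018 and holds the E-box CACGTG at position -98. Esrra lies on the minus strand at chr19:6921759-6922058 and holds TGCGCA, a half-site of the respiratory gene activator NRF-1, at position -31. Nrip1 lies on the minus strand at chr16:76373778-76374077 and holds none of the motifs searched.
Ppargc1a: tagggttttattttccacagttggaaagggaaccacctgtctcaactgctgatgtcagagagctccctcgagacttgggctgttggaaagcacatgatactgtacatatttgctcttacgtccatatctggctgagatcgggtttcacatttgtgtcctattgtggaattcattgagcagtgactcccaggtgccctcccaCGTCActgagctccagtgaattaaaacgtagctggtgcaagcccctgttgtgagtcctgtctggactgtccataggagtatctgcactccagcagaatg
Zic1: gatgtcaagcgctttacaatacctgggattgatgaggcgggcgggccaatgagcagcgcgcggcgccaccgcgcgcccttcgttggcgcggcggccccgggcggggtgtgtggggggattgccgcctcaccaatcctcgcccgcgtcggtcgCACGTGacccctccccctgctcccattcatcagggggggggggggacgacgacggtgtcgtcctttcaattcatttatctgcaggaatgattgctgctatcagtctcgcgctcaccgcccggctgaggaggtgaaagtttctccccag
Esrra: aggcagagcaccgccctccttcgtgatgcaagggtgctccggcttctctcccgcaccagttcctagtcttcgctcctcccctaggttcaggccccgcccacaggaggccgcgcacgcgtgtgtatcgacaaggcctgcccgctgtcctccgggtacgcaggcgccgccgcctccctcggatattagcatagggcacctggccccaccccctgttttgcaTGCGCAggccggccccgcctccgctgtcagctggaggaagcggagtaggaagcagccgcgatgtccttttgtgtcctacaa
Nrip1: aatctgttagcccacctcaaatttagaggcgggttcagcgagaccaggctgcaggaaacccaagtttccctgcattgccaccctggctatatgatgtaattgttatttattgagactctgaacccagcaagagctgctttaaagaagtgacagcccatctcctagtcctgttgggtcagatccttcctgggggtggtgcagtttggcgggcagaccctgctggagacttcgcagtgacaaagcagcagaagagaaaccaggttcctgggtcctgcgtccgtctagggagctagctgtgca
Of the 10 regulators, 7 were in the promoter table, with 11 start sites between them. Ebf2, Tbx15 and Ppargc1b were not. Of the 11 windows, 1 (Zic1) held the E-box CACGTG, which 7.15% of all 32851 promoter windows of this length hold. The cAMP half-site was in 1 window (Ppargc1a), against 20.8% of all windows, and the NRF-1 half-site, a motif picked after its letters were seen, in 2 (Esrra and Prdm16), against 7.76%. The D-box TTANGTAA, the site of clock output factors, and the estrogen-related receptor half-site AAGGTCA were in none, against 2.32% and 4.72% of all windows. Both strands were searched, the motifs do not overlap in these windows, and a match says only that the letters are there.

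Before the levels are given, some properties of the arrays bear on them. All 6 WAT arrays carried genes of the epididymis: the summed intensity of 12 of them, including the lipocalins Lcn5, Lcn8 and Lcn9 and by Gpx5, was 80971 to 91817 on 5 WAT arrays, 26816 on per2-/- WAT replicate 3 and 43.8 to 382 on the BAT arrays. The same per2-/- replicate 3 had more signal of adipocyte genes in general (summed intensity of 13 genes 78320, against 41098 to 43671 on the other WAT arrays) and of endothelial genes (14 genes, 5424 against 2828 to 3216). Rank correlations with the BAT arrays lay between 0.886 and 0.897 for this array and between 0.805 and 0.837 for the remaining WAT arrays. The BAT arrays carried skeletal muscle genes (23 genes), from 7687 on per2-/- replicate 1 to 52233 on per2+/+ replicate 3, against 758 to 2713 in WAT. Tissue labels otherwise held in the markers: the thermogenic uncoupler Ucp1 was at 10433 or more on every BAT array and at 7.05 or less in per2+/+ WAT, and leptin (Lep) was at 674 or more in WAT and at 161 or less in BAT. Per2 itself, at 116, 99.5 and 122 in per2+/+ WAT and 116, 108 and 172 in per2-/- WAT, did not separate the genotypes in WAT. In BAT it was at 174, 158.1 and 163 in per2+/+ mice and at 138, 151 and 157.7 in per2-/- mice. Each per2-/- BAT array was thus below the per2+/+ ones, the nearest narrowly so, and the difference was not called (-0.14, limma adjusted p = 0.773). Where its probes lie relative to the deleted part is not given, so this does not check the genotype.

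**Figure D1:**
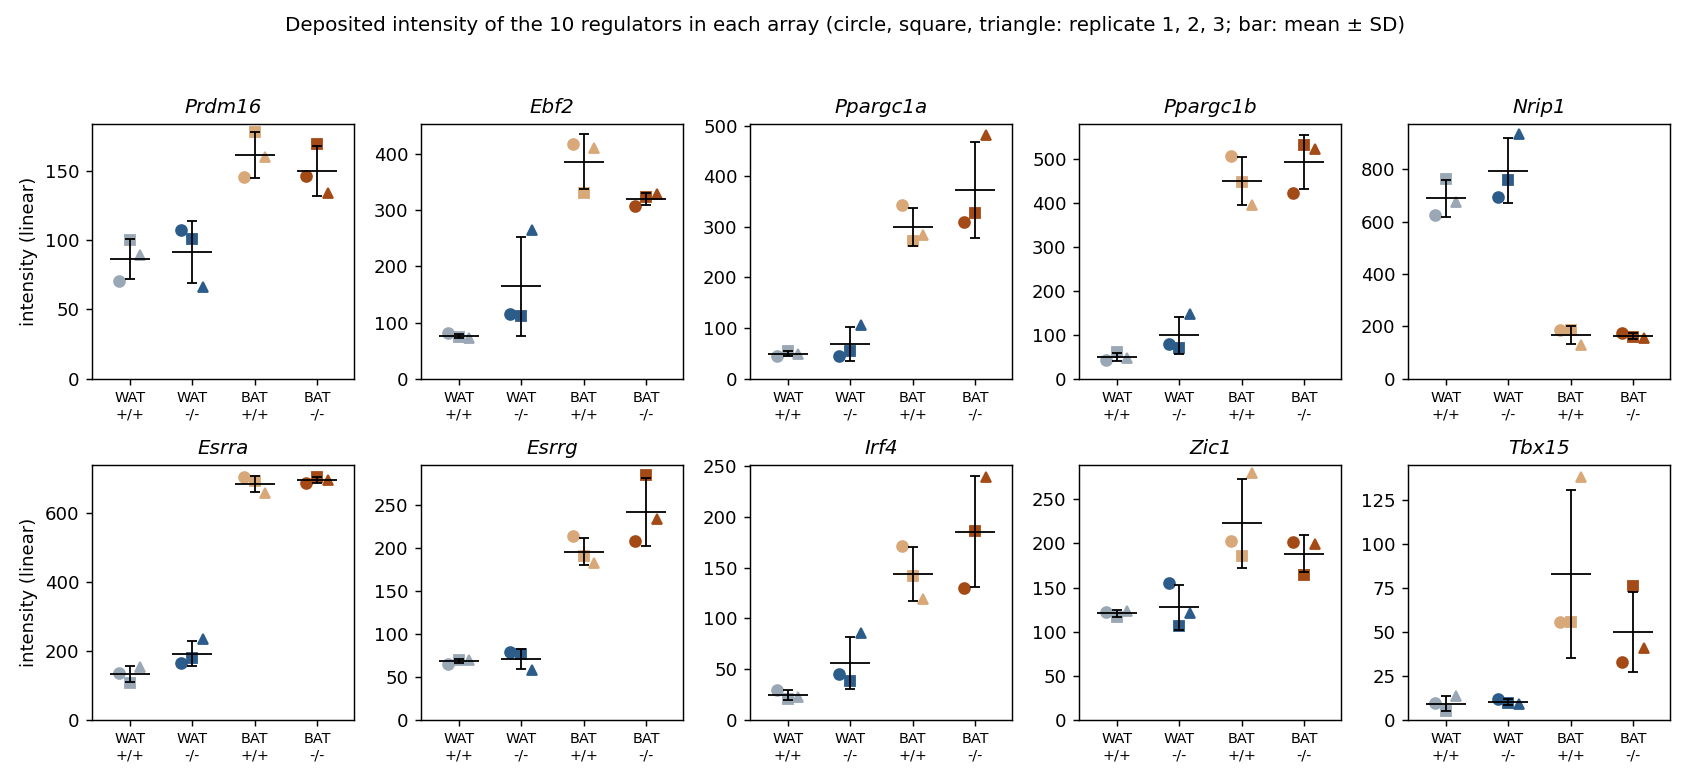
Deposited intensity (linear, 1 panel per gene with its own axis from 0) of the 10 regulators in WAT and BAT of per2+/+ (+/+) and per2-/- (-/-) mice. Points are single arrays (circle, square and triangle for replicates 1, 2 and 3) and black bars the mean ± SD of 3 arrays. In total 9 genes lie higher in BAT and Nrip1 lies lower, and per2-/- WAT replicate 3 is the highest WAT array for Ebf2, Ppargc1a, Ppargc1b, Esrra, Irf4 and Nrip1.

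Brown identity factors were higher in BAT than in WAT in both genotypes. Prdm16, the zinc-finger coregulator that favours brown over muscle and white genes, had intensities of 70.8, 99.8 and 89.1 in per2+/+ WAT, 108, 101 and 65.9 in per2-/- WAT, 146, 178 and 160 in per2+/+ BAT and 146, 170 and 134 in per2-/- BAT. Every BAT array was above every WAT array, and within a tissue the genotypes overlapped. On the log2(intensity + 16) scale, BAT exceeded WAT by 0.80 ± 0.16 (SE) in per2+/+ mice (limma, adjusted p = 0.00146) and by 0.65 ± 0.16 in per2-/- mice (adjusted p = 0.00657). These correspond to 1.74-fold and 1.56-fold on that scale.

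Ebf2, a helix-loop-helix factor that marks brown precursors and opens brown genes to PPARγ, was at 80.4, 74.3 and 72.3 in per2+/+ WAT and at 116, 112 and 265 in per2-/- WAT. In BAT it was at 419, 331 and 412 in per2+/+ mice and at 309, 324 and 329 in per2-/- mice. The genotypes did not overlap in either tissue, narrowly so in BAT: each per2-/- array was above the per2+/+ arrays in WAT and below them in BAT. The BAT excess was 2.13 ± 0.24 in per2+/+ mice (limma, adjusted p = 1.64e-05) and 1.0 ± 0.24 in per2-/- mice (adjusted p = 0.00475).

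The PGC-1 coactivators were higher in BAT in both genotypes. Ppargc1a, the cold-inducible coactivator PGC-1α, was at 44.4, 55.2 and 49.0 in per2+/+ WAT, 43.8, 55.4 and 107 in per2-/- WAT, 343, 272 and 283 in per2+/+ BAT and 309, 327 and 482 in per2-/- BAT. Replicate 3 was the highest array of both per2-/- groups, and the other per2-/- arrays lay within or near the per2+/+ range. BAT exceeded WAT 4.81-fold in per2+/+ mice (log2 difference 2.26 ± 0.24, limma adjusted p = 9.55e-06) and 4.73-fold in per2-/- mice (2.24 ± 0.24, adjusted p = 1.51e-05). A second row for Ppargc1a gave 2.2 and 2.09 for the same tissue differences.

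Ppargc1b, the related coactivator PGC-1β, was at 41.5, 60.3 and 46.2 in per2+/+ WAT and 79.1, 69.2 and 146 in per2-/- WAT, with no overlap. In BAT it was at 506, 448 and 395 in per2+/+ mice and 422, 533 and 524 in per2-/- mice, which overlapped. Its tissue difference in per2+/+ mice was the largest among the 10 genes on the log2(intensity + 16) scale, 7.15-fold (2.84 ± 0.21, limma adjusted p = 7.50e-07), and in per2-/- mice it was 4.63-fold (2.21 ± 0.21, adjusted p = 7.63e-06).

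Irf4, an interferon regulatory factor that works with PGC-1α at Ucp1, was at 29.7, 20.9 and 22.9 in per2+/+ WAT and at 45.6, 38.0 and 85.7 in per2-/- WAT. In BAT it was at 172, 142 and 119 in per2+/+ mice and at 130, 186 and 240 in per2-/- mice. The WAT genotypes did not overlap and the BAT genotypes did. Irf4 is also expressed by lymphocytes and macrophages. The summed intensity of 16 lymphocyte genes was 491 to 616 over all 12 arrays, and that of 16 macrophage and dendritic genes was 2751 to 5072 in WAT and 1031 to 1415 in BAT, where Irf4 was higher. The 5072 was on per2-/- WAT replicate 3, the WAT array with the highest Irf4, and its part in the genotype difference was not tested. BAT exceeded WAT in Irf4 by 1.98 ± 0.25 in per2+/+ mice (limma, adjusted p = 3.58e-05) and by 1.49 ± 0.25 in per2-/- mice (adjusted p = 0.000385).

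The estrogen-related receptors, orphan nuclear receptors of mitochondrial genes, were both higher in BAT. Esrra was at 136, 108 and 153 in per2+/+ WAT, 164, 179 and 234 in per2-/- WAT, 705, 692 and 657 in per2+/+ BAT and 688, 706 and 697 in per2-/- BAT. The BAT arrays lay in a narrow band in which the genotypes overlapped, whereas every per2-/- WAT array was above the per2+/+ WAT arrays. The BAT excess was 4.76-fold in per2+/+ mice (2.25 ± 0.13, limma adjusted p = 1.38e-07) and 3.46-fold in per2-/- mice (1.79 ± 0.13, adjusted p = 1.42e-06).

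Esrrg was at 65.2, 69.4 and 69.7 in per2+/+ WAT, 78.9, 76.5 and 57.4 in per2-/- WAT, 213, 191 and 182 in per2+/+ BAT and 208, 284 and 233 in per2-/- BAT. Here the genotypes overlapped in both tissues, and per2-/- WAT replicate 3 was the lowest array of all. The BAT excess was 1.33 ± 0.13 in per2+/+ mice (limma, adjusted p = 5.03e-06) and 1.57 ± 0.13 in per2-/- mice (adjusted p = 2.52e-06). Esrrg is also expressed in oxidative muscle. Over replicates 1, 2 and 3, the summed intensity of the 23 muscle genes was 7687, 23888 and 9932 in per2-/- BAT, the same order as Esrrg. In per2+/+ BAT it was 13052, 22550 and 52233, the opposite order to Esrrg. The part of muscle RNA in the Esrrg levels was not tested.

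Nrip1, the corepressor of oxidative and thermogenic genes, was the 1 regulator higher in WAT. Its intensities were 627, 765 and 676 in per2+/+ WAT and 695, 760 and 934 in per2-/- WAT, against 186, 187 and 127 in per2+/+ BAT and 176, 161 and 154 in per2-/- BAT. WAT exceeded BAT 3.90-fold in per2+/+ mice (BAT minus WAT -1.96 ± 0.15, limma adjusted p = 8.99e-07) and 4.49-fold in per2-/- mice (-2.17 ± 0.15, adjusted p = 8.49e-07). The array with the highest Nrip1, per2-/- WAT replicate 3, was also the WAT array with the highest Ebf2, Ppargc1a, Ppargc1b, Esrra and Irf4.

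The positional factors were Zic1 and Tbx15. Zic1, a zinc-finger factor of paraxial mesoderm used as a marker of classical interscapular brown fat, was at 122, 116 and 124 in per2+/+ WAT, 155, 106 and 121 in per2-/- WAT, 202, 186 and 280 in per2+/+ BAT and 202, 164 and 199 in per2-/- BAT. The tissues did not overlap, with per2-/- WAT replicate 1 and per2-/- BAT replicate 2 the nearest arrays. The BAT excess was 0.78 ± 0.16 in per2+/+ mice (limma, adjusted p = 0.00126) and 0.52 ± 0.16 in per2-/- mice (adjusted p = 0.0173). The second of these did not pass without per2-/- WAT replicate 2 (0.41, adjusted p = 0.0738), without per2-/- BAT replicate 1 (0.47, adjusted p = 0.0610) or without per2-/- BAT replicate 3 (0.48, adjusted p = 0.0588).

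Tbx15, a T-box factor of brown fat and of fast muscle fibres in mice, was near the bottom of the scale in WAT, at 9.31, 4.71 and 13.7 in per2+/+ mice and 12.0, 9.60 and 8.91 in per2-/- mice. In BAT it was at 55.3, 55.4 and 138 in per2+/+ mice and at 33.1, 76.0 and 41.0 in per2-/- mice. The BAT excess was 1.89 ± 0.29 in per2+/+ mice (limma, adjusted p = 0.000209) and 1.28 ± 0.29 in per2-/- mice (adjusted p = 0.00373). Both are smaller than the ratio of the intensities, because the WAT values lie below the constant of 16 added before taking logs. Ordered by Tbx15, the 6 BAT arrays fell in the same order as by skeletal muscle signal, from per2-/- replicate 1 (7687), per2-/- replicate 3 (9932), per2+/+ replicate 1 (13052) and per2+/+ replicate 2 (22550) to per2-/- replicate 2 (23888) and per2+/+ replicate 3 (52233), with per2+/+ replicates 1 and 2 nearly equal in Tbx15. Zic1 had its highest value on per2+/+ replicate 3 and its lowest on per2-/- replicate 2, so the order was not shared. Without per2+/+ BAT replicate 3 the per2+/+ tissue difference was 1.52 for Tbx15 (adjusted p = 0.000370) and 0.62 for Zic1 (adjusted p = 0.00462). The part of muscle RNA in these differences was not tested.

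**Figure D2:**
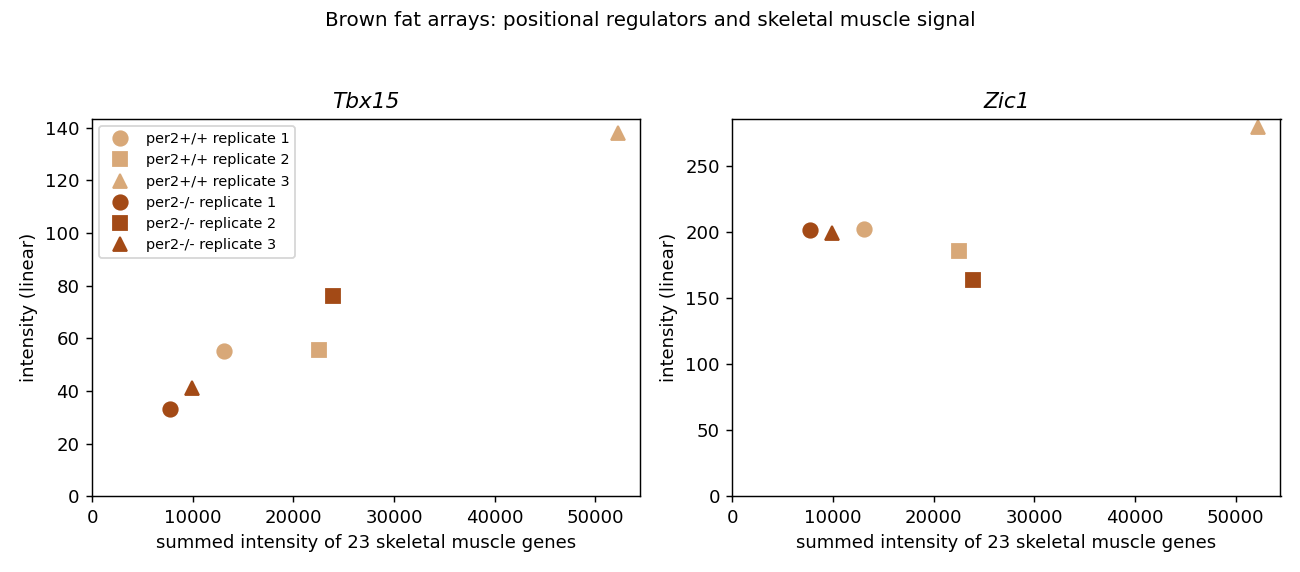
Intensity (linear) of Tbx15 and Zic1 on the 6 BAT arrays against the summed intensity of 23 skeletal muscle genes on the same array. Points are single arrays, light for per2+/+ and dark for per2-/-, with circle, square and triangle for replicates 1, 2 and 3. Tbx15 follows the order of the muscle signal and Zic1 does not.

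Counted over the 10 regulators, 9 were higher and 1 was lower in BAT in each genotype, all at an adjusted p under 0.05. Of all genes, 20.3% were called higher and 30.3% lower in per2+/+ mice, and 20.2% and 26.8% in per2-/- mice, so that tissue calls were common (50.6% and 47% in either direction). The BAT and WAT arrays of a genotype did not overlap for any of the 10, as for 60.7% of all genes in per2+/+ mice and 55.6% in per2-/- mice. The median log2 difference was 1.93 over the regulators and -0.03 over all genes in per2+/+ mice, and 1.39 and 0.01 in per2-/- mice. The counts were also 9 and 1 without per2-/- WAT replicate 3, without per2+/+ BAT replicate 3 and without both. The 2 tissues are whole depots, in which fewer cells of a type and less RNA per cell cannot be told apart. The part of the epididymal RNA in the WAT levels was not tested.

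**Figure D3:**
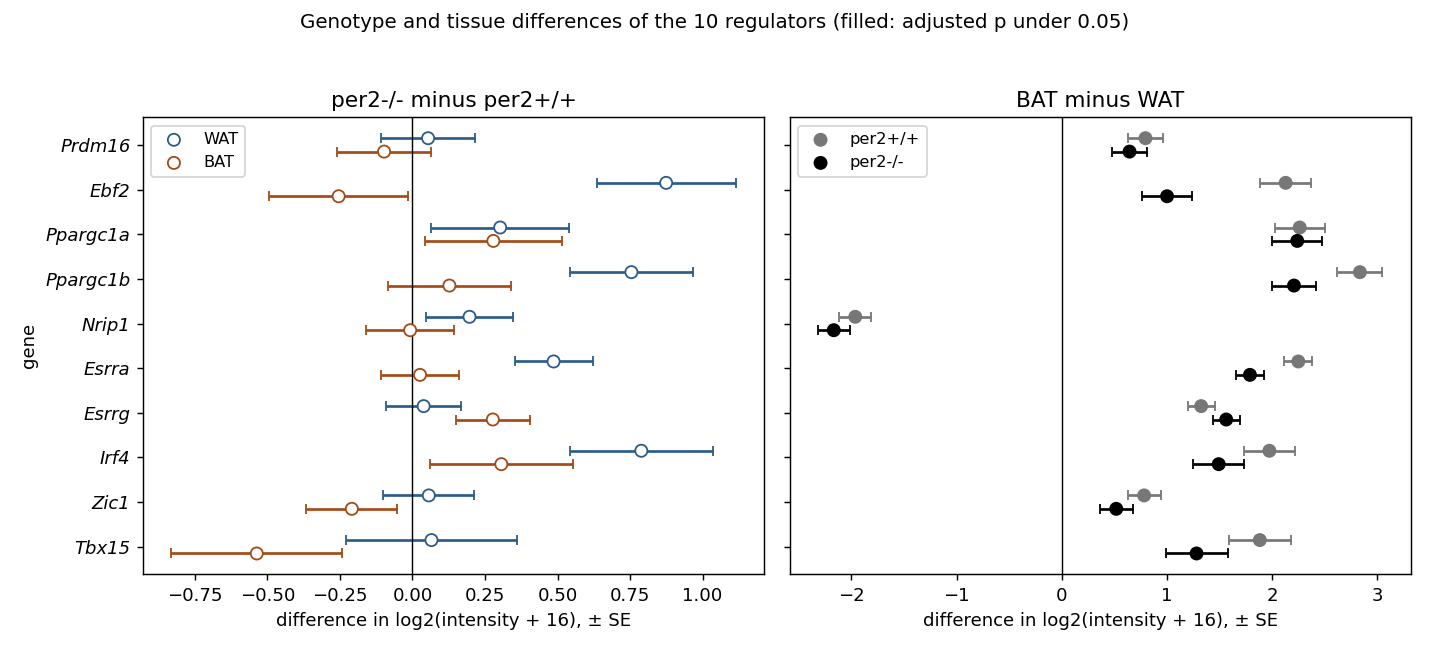
Log2(intensity + 16) differences with their SE for the 10 regulators, per2-/- minus per2+/+ on the left (blue for WAT, brown for BAT) and BAT minus WAT on the right (grey for per2+/+, black for per2-/-). Filled points have an adjusted p under 0.05 over 19933 genes. All tissue differences are filled and no genotype difference is.

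Loss of Per2 gave no regulator an adjusted p under 0.05 in WAT, where 2.42% of all genes were called (limma, 10 regulators tested). In all, 4 of the 10 had an unadjusted p under 0.05, against 13.9% of all genes, and the same 4 genes had every per2-/- array above every per2+/+ array, against 9.88% of all genes. They were Ebf2 (0.87 ± 0.24, adjusted p = 0.0941), Irf4 (0.79 ± 0.25, adjusted p = 0.147), Ppargc1b (0.75 ± 0.21, adjusted p = 0.104) and Esrra (0.49 ± 0.13, adjusted p = 0.0964). By the p-values on natural logs in the authors' deposited table, adjusted here, Ebf2 (0.0443) and Irf4 (0.0160) were under 0.05, whereas by that table's p-values on linear intensities neither Ebf2 (0.101) nor Irf4 (0.0712) was, and 0 regulators passed. The other 6 had differences of 0.04 to 0.30, with Ppargc1a at 0.30 ± 0.24 (adjusted p = 0.631) and Prdm16 at 0.05 ± 0.16 (adjusted p = 0.934).

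The size of these WAT differences rested in part on per2-/- replicate 3. Of all 19933 genes, 482 were called in WAT with that array and 876 without it. Without that array the Ebf2 difference was smaller but passed the test (0.50, limma adjusted p = 0.0179), while Ppargc1b was at 0.47 (adjusted p = 0.112), Irf4 at 0.52 (adjusted p = 0.243), Esrra at 0.35 (adjusted p = 0.147) and Ppargc1a at -0.000311 (adjusted p = 0.999). Set on a scale from the per2+/+ WAT mean at 0% to the per2+/+ BAT mean at 100%, the 3 per2-/- WAT arrays lay at 12.9%, 11.6% and 60.9% for Ebf2, at 17.6%, 11.3% and 51.2% for Irf4, and at 7.42%, 4.96% and 24.1% for Ppargc1b. Esrra lay at 5.72%, 8.44% and 18.3%, and Nrip1 at -1.01%, -13.4% and -46.8%, away from the BAT level. For Nrip1 the per2+/+ WAT arrays themselves strayed by up to 14.5%, so only replicate 3 lay beyond their spread. Prdm16 lay at 28.1% and 18.9% on the first 2 arrays and at -27.5% on the third, where the per2+/+ WAT arrays themselves strayed by up to 21.0%. For 2 genes of the thermogenic list the same arrays lay at 23.6%, 24.6% and 41.2% (Ucp1) and at 17.8%, 16.8% and 29.3% (Cidea). Tbx15 lay between -0.44% and 3.7%.

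**Figure D4:**
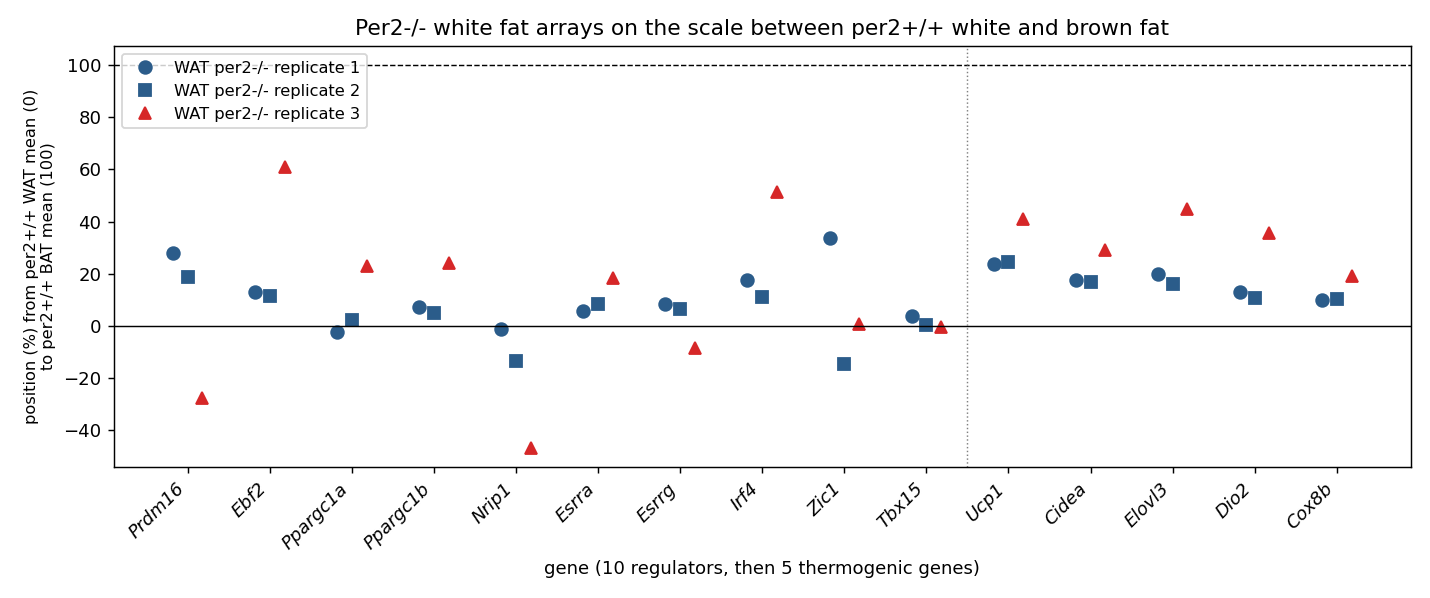
Position of the 3 per2-/- WAT arrays (blue circle and square for replicates 1 and 2, red triangle for replicate 3) between the per2+/+ WAT mean (0%) and the per2+/+ BAT mean (100%), in percent of the intensity difference, for the 10 regulators and 5 thermogenic genes. Replicate 3 lies highest for Ebf2 (60.9%) and Irf4 (51.2%) and below 0% for Prdm16, Esrrg, Tbx15 and Nrip1.

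In BAT, no regulator had an adjusted p under 0.05 for per2-/- against per2+/+ (limma, 1.72% of all genes called), and none had an unadjusted p under 0.05, against 12.5% of all genes. By the authors' deposited p-values on natural logs, none passed after adjustment either. The smallest p was that of Esrrg, at 0.28 ± 0.13 (adjusted p = 0.407). Tbx15 was at -0.54 ± 0.29 (adjusted p = 0.512) and at -0.17 without per2+/+ replicate 3, the array with the most muscle signal. Ebf2, at -0.25 ± 0.24 (adjusted p = 0.745), was the 1 regulator whose BAT genotypes did not overlap, with all per2-/- arrays lower, as for 8.24% of all genes. Irf4 was at 0.31 ± 0.25 (adjusted p = 0.683) and Ppargc1a at 0.28 ± 0.24 (adjusted p = 0.705).

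Whether the genotype difference itself differed between BAT and WAT was tested as an interaction. None of the 10 passed (limma, 0.592% of all genes called), and 2 had an unadjusted p under 0.05, against 9.46% of all genes. These were Ebf2, at -1.13 ± 0.34 (adjusted p = 0.256), and Esrra, at -0.46 ± 0.19 (adjusted p = 0.472). Without per2-/- WAT replicate 3, Ebf2 was at -0.76 and passed (adjusted p = 0.0172). Calls of the interaction over all 19933 genes also rose without that array, from 118 to 372. The WAT and BAT genotype differences of the other 8 regulators differed by between -0.63 (Ppargc1b) and 0.24 (Esrrg).

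Genes on which these regulators act were read beside them. Of 22 measured thermogenic genes, 14 rose and none fell in per2-/- WAT (1.27% of all genes called higher), led by Ucp1 (log2 difference 7.15), Cidea, a lipid droplet protein (5.63), and Cox8b, a respiratory chain subunit (4.13) (limma, adjusted p = 1.06e-09, 7.46e-09 and 1.91e-06). Their median was 1.77, against -0.01 over all genes. Without per2-/- replicate 3, 16 rose and 1 fell, where 435 of all 19933 genes were called higher and 441 lower. Of 35 measured mitochondrial targets of the estrogen-related receptors and PGC-1 coactivators, a list that holds Esrra and shares Fabp3 and Pdk4 with the thermogenic list, 24 rose and none fell, led by the fatty acid carrier Fabp3 (4.01), the pyruvate dehydrogenase kinase Pdk4 (3.10) and the trifunctional protein subunit Hadhb (1.86). Their median was 0.87. Without per2-/- replicate 3, 25 rose. Skeletal muscle also expresses several of these genes. Its 23 marker genes summed to 1182, 2713 and 2039 in per2-/- WAT against 758 to 827 in per2+/+ WAT, and their part in these counts was not tested.

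In BAT, 2 of the 22 thermogenic genes rose with loss of Per2, the fatty acid transporter Slc27a2 (0.48, limma adjusted p = 0.0296) and the nucleoside transporter Slc29a1 (0.48, adjusted p = 0.0297). That count was 7 without per2-/- WAT replicate 3, which enters the shared error estimate, and 0 without per2+/+ BAT replicate 3. Of all 19933 genes, 181 were called higher in per2-/- BAT. Their number was 608 without per2-/- WAT replicate 3 and 114 without per2+/+ BAT replicate 3. None of the 35 mitochondrial targets was called, and 1 had an unadjusted p under 0.05. The interaction was called, with a larger rise in WAT, for 12 thermogenic genes and 7 mitochondrial targets. Without per2-/- WAT replicate 3 it was called for 13 and 19 of them. Negative interaction differences were called for 55 of all 19933 genes, and for 178 without that array. Between tissues, all 35 mitochondrial targets were higher in BAT in per2+/+ mice and 34 in per2-/- mice, against 20.3% and 20.2% of all genes.

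Of 45 measured partners of the regulators, 3 rose and 1 fell in per2-/- WAT, where 1.27% and 1.15% of all genes were called higher and lower. Without per2-/- replicate 3, the same 3 rose and 2 fell, Bmp7 and Rxra (the latter named after its value was seen). In that fit 435 of all 19933 genes were called higher and 441 lower. Under quantile normalization, under median centring or without per2+/+ BAT replicate 3, 2 partners rose and Pim1 did not pass. Ppara, the fatty acid receptor, rose by 1.08 (limma, adjusted p = 0.00993), Pim1, a kinase, by 0.92 (adjusted p = 0.0454), and Cebpb, a PRDM16 partner, by 0.71 (adjusted p = 0.0196). Without per2-/- replicate 3 these rises were 0.89, 0.65 and 0.52. Bmp7, a growth factor that promotes brown fat differentiation, fell by 2.92 (adjusted p = 0.00807), from 5892, 5880 and 4418 in per2+/+ WAT to 1202, 1226 and 218 in per2-/- WAT. Without replicate 3 the Bmp7 difference was -2.13 (adjusted p = 3.62e-06). It was at 357 to 511 in BAT. The epididymal signal on the 3 per2-/- WAT arrays was 87963, 91817 and 26816, and its part in the Bmp7 values was not tested. The EBF relatives gave no call in WAT, with Ebf3 at 0.61 (adjusted p = 0.198) and Ebf1 at 0.54 (adjusted p = 0.433), and both were highest among WAT arrays on per2-/- replicate 3. No partner was called in BAT (limma, 5 with an unadjusted p under 0.05, against 12.5% of all genes), where the smallest p was that of Med1, a Mediator subunit that binds PRDM16 (0.34, adjusted p = 0.0813). With per2-/- WAT replicate 3 left out, 5 partners were called in BAT (4 higher and 1 lower, against 608 and 425 of all 19933 genes).

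Of 23 measured positional genes, none was called between genotypes in either tissue (limma, 3 in WAT and 4 in BAT with an unadjusted p under 0.05, against 13.9% and 12.5% of all genes). The smallest p was that of Tcf21 in WAT (-0.61, limma adjusted p = 0.143) and of Hoxc8 in BAT (1.22, adjusted p = 0.0768). Hoxc8 was at 20.9, 29.6 and 25.3 in per2+/+ BAT and at 129, 49.2 and 76.4 in per2-/- BAT. Between tissues in per2+/+ mice, 8 were higher in BAT and 5 were lower, against 20.3% and 30.3% of all genes, led by Hoxc8 (-3.89), Tcf21 (-2.94) and Hoxa5 (1.63). Among the relatives of Zic1, Zic2 was higher in BAT by 0.38 in per2+/+ mice (adjusted p = 0.00341), and Zic4 was not called (-0.15, adjusted p = 0.175).

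Genes whose log2(intensity + 16) followed each regulator most closely over the 12 arrays were taken from 14428 genes with a mean intensity of at least 32. With 2 tissues that differ in 47% to 50.6% of all genes, such correlations are dominated by tissue and are given as a description. Ppargc1b was followed most closely by Atp5a1 (r = 0.996), an ATP synthase subunit, and Ndufa9 (r = 0.996), a complex I subunit. Esrra was followed by Tbrg4 (r = 0.997) and Taco1 (r = 0.997), and Ppargc1a by Mtx1 (r = 0.997) and Btd (r = 0.994). Ebf2 was followed by Plin2 (r = 0.989), a lipid droplet coat protein, and Ntrk2 (r = 0.988), both of which were highest among WAT arrays on per2-/- replicate 3. Irf4 was followed by Cars2 (r = 0.989) and Iscu (r = 0.985), Esrrg by Pde4a (r = 0.991) and Qrsl1 (r = 0.990), and Nrip1 by Rad50 (r = 0.990) and Tbl1x (r = 0.990). The nearest genes to Tbx15 were 2 muscle enzymes, Pgam2 (r = 0.983) and Ampd1 (r = 0.982), and Ampd1 reached 3567 on per2+/+ BAT replicate 3. Zic1 was followed by Snhg17 (r = 0.957) and Mybph (r = 0.956), and Prdm16 by Efna3 (r = 0.960) and Mpped1 (r = 0.955), at the lowest correlations of the 10. Mybph, like Zic1, was highest on per2+/+ BAT replicate 3 (155), the array with the most muscle signal.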

How the data were processed

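The value table holds, per the file headers, linear intensities of transcripts summarised by the authors with PLIER, without a stated version. No source used here gives a genome build for the array. The authors' deposited tables add p-values and scores from Cyber-T 8.01 and hdarray 3.71 under R 2.2.1, per the file headers. Probe names came from GEO's platform annotation: of 35557 transcripts, 21789 name 1 gene, 1621 several and 12147 none.

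The transcripts that name 1 gene and were tested by the authors, 1 per gene, gave 19933 genes. Intensities were tested as log2(intensity + 16) with limma 3.58.1 under R 4.3.3 in 1 fit of 12 arrays and 4 group means, with Benjamini-Hochberg adjustment over all genes in each of 5 contrasts. Fold changes on this scale understate dim genes. The p-values measure the spread between the samples the labels call biological replicates. The number of arrays limits the precision.

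For the WAT genotype contrast, data were simulated from the means and spread of genes on these arrays. In the simulated data, 80 of 100 genes changed by a log2 difference of 1 and 98 of 100 changed by 2 were recovered. There were 11 false calls over 19933 genes. With array weights, per2-/- WAT replicate 3 had a weight of 0.115, against 0.644 to 2.45 for the others. Simulated data with such an outlying array were not checked. The counts therefore cannot give the recovery or the false calls of the real contrast. The regulators and all lists were chosen with earlier results of these data known. The genes named beyond the regulators were, per list and contrast, up to 3 called genes with the largest difference, otherwise the 1 with the smallest p. Per regulator they were the 2 genes of highest correlation. Ebf1, Ebf3, Cebpb, Zic2 and Zic4 in contrasts where they fall outside this rule were chosen after their values were seen. Alternatives covered the added constant, scaling, variance model, array weights, filters, probe rows, the replicate block and each array left out.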

Additional observations from a re-analysis of the deposited data

Results flagged for a closer look

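Ebf2, the brown precursor factor, had mean genotype differences of opposite sign in the 2 tissues. So did Prdm16, Nrip1, Zic1 and Tbx15, but the genotypes of those genes overlapped in both tissues. For Ebf2, every per2-/- array was above the per2+/+ arrays in WAT and every per2-/- array was below them in BAT. Taken separately, these hold for 9.88% and 8.24% of all genes, and the share with both at once was not counted. Neither Ebf2 difference passed the test (limma, 0.87 with adjusted p = 0.0941 in WAT and -0.25 ± 0.24 with adjusted p = 0.745 in BAT). In BAT the nearest arrays of the genotypes were at 329 and 331. The test of the difference between the tissues gave -1.13 on the log2 scale (limma, adjusted p = 0.256), and -0.76 without per2-/- WAT replicate 3 (adjusted p = 0.0172). That test called 118 of all 19933 genes, and 372 without that array. On that array Ebf2 was at 265, against 116 and 112 on the other per2-/- WAT arrays.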

How the results depend on the processing

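All 10 regulators kept their tissue direction and call in per2+/+ mice under every alternative run, as did 9 in per2-/- mice, the exception being Zic1 (0.40 to 0.79 over its alternatives, called in 23 of 26). The BAT minus WAT differences depend on scaling: median centring raised them by 0.31 (per2+/+) and 0.27 (per2-/-) for the median gene and quantile normalization by 0.18 and 0.14. Calls over all genes in per2+/+ mice went from 4045 higher and 6044 lower to 9439 and 3834 with median centring and 6910 and 4488 with quantile normalization, and in per2-/- mice from 4021 and 5352 to 9337 and 3391 and to 6417 and 4003. With median centring, partners higher and lower in BAT in per2+/+ mice went from 22 and 12 to 27 and 5, and positional genes from 8 and 5 to 14 and 4.

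The count of regulators called in WAT for the genotype, 0, was 2 with array weights (Ebf2 and Esrra), 2 by the authors' p-values on natural logs (Ebf2 and Irf4) but 0 by those on linear intensities, and 1 (Ebf2) with per2-/- WAT replicate 3 and per2+/+ BAT replicate 3 both left out, an alternative chosen after seeing the data. It was 0 to 1 over the arrays left out in turn. The interaction count, 0, was 1 (Ebf2) with array weights and with both arrays left out, and 0 to 1 over the arrays left out in turn. The weight of per2-/- WAT replicate 3 was 0.115, against 0.644 to 2.45 for the others. The causes of these changes were not tested.

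The lists were also counted without per2-/- WAT replicate 3, a choice made after seeing the data. Calls in BAT were then 5 for partners, 7 for thermogenic genes, 1 for mitochondrial targets and 1 for positional genes. Interaction calls were 2 for partners and 19 for mitochondrial targets. Calls over all 19933 genes without that array also rose, from 343 to 1033 in BAT and from 118 to 372 for the interaction. Without per2+/+ BAT replicate 3 there were 0 thermogenic calls in BAT. Over all genes, 482 genes were called for the genotype in WAT, 127 with only the 6 arrays compared, 1630 with array weights and 876 without per2-/- WAT replicate 3.

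Differences that changed sign were all uncalled. Over the arrays left out in turn, the WAT genotype difference ran from -0.061 to 0.24 for Prdm16, -0.000311 to 0.52 for Ppargc1a, -0.029 to 0.16 for Esrrg, -0.078 to 0.17 for Zic1 and -0.069 to 0.19 for Tbx15. The BAT genotype difference ran from -0.17 to 0.078 for Nrip1 and -0.00207 to 0.047 for Esrra. With per2-/- WAT replicate 3 and per2+/+ BAT replicate 3 both left out, Ppargc1a in WAT was at -0.000311 and Esrra in BAT at -0.00207. The Ppargc1a interaction (-0.02) was 0.05 with 64 added, 0.25 with array weights, 0.24 with both arrays left out and -0.24 to 0.28 over the arrays left out in turn.

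Deviations from the group means of same-numbered samples correlated at -0.14 to 0.15 over 18 pairs of samples, 1 of them over 0.1. In 6 of the pairs the sample correlated best with its own number. Pairs across genotypes cannot share a mouse, and low correlations cannot tell if WAT and BAT with the same number do. With the replicate block, 0 regulators were called for the genotype in WAT, 0 in BAT and 0 for the interaction, and 10 between tissues in each genotype. Over all genes the block gave 205 higher and 194 lower in WAT.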
